A study of Mus musculus with 20 samples.

Results

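The effect of tea in mice on a normal diet was examined in 10 white adipose tissue libraries, those of 5 chow-fed mice that drank a water extract of Tibetan tea and of 5 chow-fed mice that drank water. They were selected by their labelled diet and drink, and they are 10 of the 20 libraries of a study whose other 10 mice ate a high-fat diet with tea or with water. All mice were kept for 10 weeks under light and dark periods of 12 hours with free access to food and drink, and each library is described as a separate mouse. The sources used here do not give the fat depot, the strain, the sex and age of the mice or the hour of tissue collection. Tibetan tea is a post-fermented dark tea, and its dose and composition are likewise not given. Poly-A RNA was sequenced with a kit that keeps strand, and the chow libraries held 53047057 to 81589152 reads in genes, with 23800 to 26528 genes detected. The table lists 56805 genes, of which 21306 passed the filter on low counts and were tested.

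Markers of the labelled tissue were abundant in all 10 libraries: the summed level of the adipocyte identity list was 64484 to 86616 CPM (read counts relative to the library total, scaled by trimmed means of M values) in tea libraries and 25508 to 85715 CPM in water libraries. The lowest value belonged to chow water replicate 1, which stood apart from the other 9. In that library pancreas acinus genes summed to 406226 CPM before scaling, against 7.10 to 61.4 CPM in the other chow libraries, and intestine genes summed to 5600 CPM. Chow water replicate 2 held 2201 CPM of kidney and 6262 CPM of skeletal muscle genes, chow tea replicate 1 held 5929 CPM of skeletal muscle genes, and chow tea replicate 3 held 737 CPM of kidney genes. On the first principal component of the chow libraries, which took 42.1% of the variance, chow water replicate 1 was at 224, chow water replicate 2 at 42 and the other libraries between −64.1 and 22. The median standard deviation of log2 CPM within a group was 0.320 in the tea group and 0.483 in the water group, and 0.328 in the water group without replicate 1. In bulk tissue, fewer cells of a type and less RNA per cell cannot be told apart.

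Few genes passed the test for tea against water in chow-fed mice. With a model of all 20 libraries, 5 of 21306 genes (0.0235%) were called at an adjusted p below 0.05 (edgeR quasi-likelihood F test, Benjamini-Hochberg adjustment). Dbp and Nr1d1, a pair of genes of the circadian clock, Vmn2r1, a pheromone receptor gene, and Fbxl9, an F-box protein gene, rose with tea, 4 genes or 0.0188% of those tested, and Hnrnpc, a nuclear RNA-binding protein gene, fell (0.00469%). For all 5, each tea library lay on the same side of every water library, as it did for 545 of the genes tested (2.56%), in 338 with tea higher (1.59%) and in 207 with tea lower (0.972%). An unadjusted p below 0.05 was reached by 2634 genes (12.4%), of which 990 (4.65%) were higher with tea and 1644 (7.72%) lower. Without chow water replicate 1, the library with pancreas transcripts, it was reached by 1614 of 21778 genes tested, 736 higher and 878 lower. The median change over all genes tested was −0.03 on the log2 scale. Hereafter called means called by edgeR unless DESeq2 is named.

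**Figure D1:**
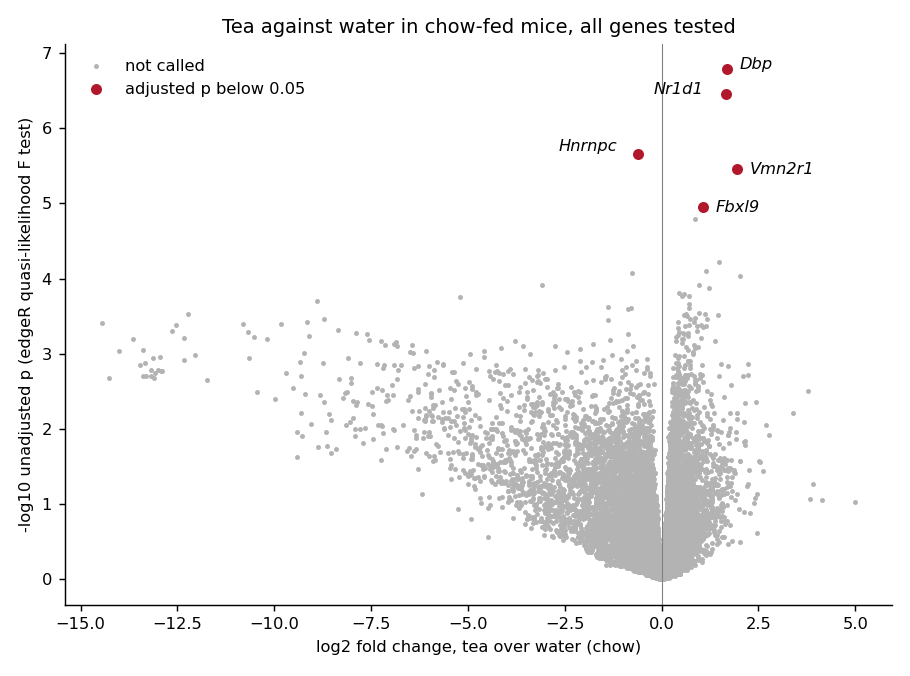
Change with tea (log2 fold change, tea over water, x axis) against the unadjusted p on a −log10 scale (y axis) for the 21306 genes tested in chow-fed mice. Red points are the 5 genes called at an adjusted p below 0.05, with Dbp and Nr1d1 at the top. The arm of grey points at large negative values holds genes such as Pnlip (log2 −13.38, adjusted p = 0.193), whose reads came almost wholly from chow water replicate 1.

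The calls differed between models and tools. With only the 10 chow libraries in the model no gene was called, the lowest adjusted p was 0.149 (Dbp and Nr1d1), and 2398 genes had an unadjusted p below 0.05. DESeq2 on all 20 libraries called 261 genes (1.23%), among them all 5, with 91 higher and 170 lower in tea libraries. In 126 of those 170 the highest of the 10 libraries was chow water replicate 1, and without that library DESeq2 called 85 genes, of which 58 were among the 261.

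The circadian clock of mammalian cells is a loop of transcription. CLOCK or NPAS2 with BMAL1, whose gene is listed here as Arntl, activates the genes of its own repressors, the PER and CRY proteins, and the genes of the nuclear receptors REV-ERBα (Nr1d1) and REV-ERBβ (Nr1d2), which in turn silence Arntl. DBP, TEF and HLF are output factors that bind D-boxes and compete there with NFIL3. Transcripts of this loop cycle over the day in fat, so their levels depend on the hour at which tissue is taken.

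Dbp (chromosome 7, 45354512 to 45359627, plus strand, GRCm39) had 10.4, 10.3, 7.15, 10.0 and 7.23 CPM in the tea libraries, replicates 1 to 5, against 2.18, 3.12, 2.95, 3.64 and 1.97 CPM in the water libraries. The lowest tea library was above the highest water library, and the mean was 9.02 ± 1.68 CPM in tea libraries and 2.77 ± 0.687 CPM in water libraries (SD, n = 5 each). Dbp rose with tea by 1.70 on the log2 scale (SE 0.21, adjusted p = 0.00352, edgeR), and leaving out any one chow library gave 1.60 to 1.82.

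Nr1d1 (chromosome 11, 98658758 to 98666159, minus strand) had 150.3, 137, 177, 117 and 189.9 CPM in the tea libraries, against 40.0, 54.3, 67.3, 33.9 and 49.5 CPM in the water libraries. The groups did not overlap, and Nr1d1 rose by 1.65 on the log2 scale (SE 0.21, adjusted p = 0.00374, edgeR), with 1.55 to 1.80 when any one chow library was left out. Both Dbp and Nr1d1 were called in 22 of 25 alternative analyses and in each of the 10 that left out 1 chow library. The 3 without a call of either gene were the model of the chow libraries alone, that model without chow water replicate 1 (adjusted p = 0.114), and the model without 9 libraries that held other-tissue transcripts (adjusted p = 0.511).

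Both genes share exonic bases with a neighbour on the opposite strand, and the reads were counted without regard to strand. Sphk2, a sphingosine kinase gene that covers 18.0% of the exonic bases of Dbp, had a change of 0.15 (SE 0.19, adjusted p = 0.824) on the log2 scale. It had 43.1 CPM in chow water replicate 1, against 19.4 to 23.7 CPM in the other water libraries, and its change without that library was 0.39. Its means were 28.5 CPM in tea libraries and 25.7 CPM in water libraries, above those of Dbp. The part of the overlap in the Dbp counts was not tested. Thra, the gene of a thyroid hormone receptor that covers 8.55% of the exonic bases of Nr1d1, had a change of 0.08 (SE 0.13, adjusted p = 0.869).

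Nr1d2, the second REV-ERB gene, lay just outside the threshold. Its levels were 77.5, 76.4, 56.4, 76.3 and 74.3 CPM in the tea libraries, against 42.4, 47.7, 45.0, 37.6 and 27.3 CPM in the water libraries. The groups did not overlap, and the difference was 0.85 on the log2 scale (SE 0.15, adjusted p = 0.0579, edgeR), while DESeq2 called it (adjusted p = 0.000281).

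Of the 21 clock genes listed, 20 were tested, and 2 were called, both higher with tea. At an unadjusted p below 0.05, 5 were higher (Dbp, Nr1d1, Nr1d2, Tef and Per3) and 2 lower (Arntl and Cry1). The median change of the 20 was 0.17 on the log2 scale, and 0.05 without chow water replicate 1, beside −0.03 over all genes tested. Tef, another D-box binding factor, had 83.9 to 152 CPM in tea libraries and 41.7 to 91.0 CPM in water libraries (log2 0.64, SE 0.23, adjusted p = 0.262). Per3 had 16.8 to 34.4 CPM in tea libraries and 7.79 to 23.6 CPM in water libraries (log2 0.59, SE 0.28, adjusted p = 0.395). For Tef and Per3 the groups overlapped.

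Arntl had 19.1, 16.0, 34.0, 18.9 and 32.3 CPM in the tea libraries, against 48.5, 34.3, 32.5, 31.3 and 42.7 CPM in the water libraries (log2 −0.66, SE 0.29, adjusted p = 0.354). Tea replicates 3 and 5 lay within the range of the water libraries, while tea replicates 1, 2 and 4 lay below it. Cry1, a repressor of CLOCK and BMAL1, had 14.4 to 22.7 CPM in tea libraries and 23.6 to 29.6 CPM in water libraries, with no overlap (log2 −0.53, SE 0.24, adjusted p = 0.379). Neither gene was called.

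The other members were not called and their groups overlapped. Per2 had a log2 change of −0.40 (SE 0.35), Per1 of 0.19 (SE 0.30), Cry2 of 0.22 (SE 0.17), Clock of −0.10 (SE 0.10) and Npas2 of −0.02 (SE 0.32). Rora, a receptor that activates Arntl, had a change of 0.14 (SE 0.20). Among the D-box factors, Hlf was at 0.32 (SE 0.44) and Nfil3 at −0.76 (SE 0.59). Bhlhe40 (−0.45, SE 0.38), Bhlhe41 (0.34, SE 0.31), Ciart (0.22, SE 0.40) and Usp2 (−0.48, SE 0.69) were the other members described.

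Several clock genes separated the same tea libraries. Tea replicates 3 and 5 had the lowest Dbp (7.15 and 7.23 CPM) and Tef (83.9 and 89.0 CPM) and the highest Arntl (34.0 and 32.3 CPM) and Npas2 (34.3 and 41.4 CPM). They also had the highest Nr1d1 (177 and 189.9 CPM), and Nr1d2 was low in replicate 3 (56.4 CPM) but not in replicate 5 (74.3 CPM). These genes were chosen after their values were seen, and their variation together was not tested. Tea replicates 2 and 4 had the highest Per2 (40.1 and 34.9 CPM), with 10.8 to 18.2 CPM in the other tea libraries. The water libraries spanned 25.4 to 35.5 CPM of Per2 and 22.6 to 34.2 CPM of Npas2.

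**Figure D2:**
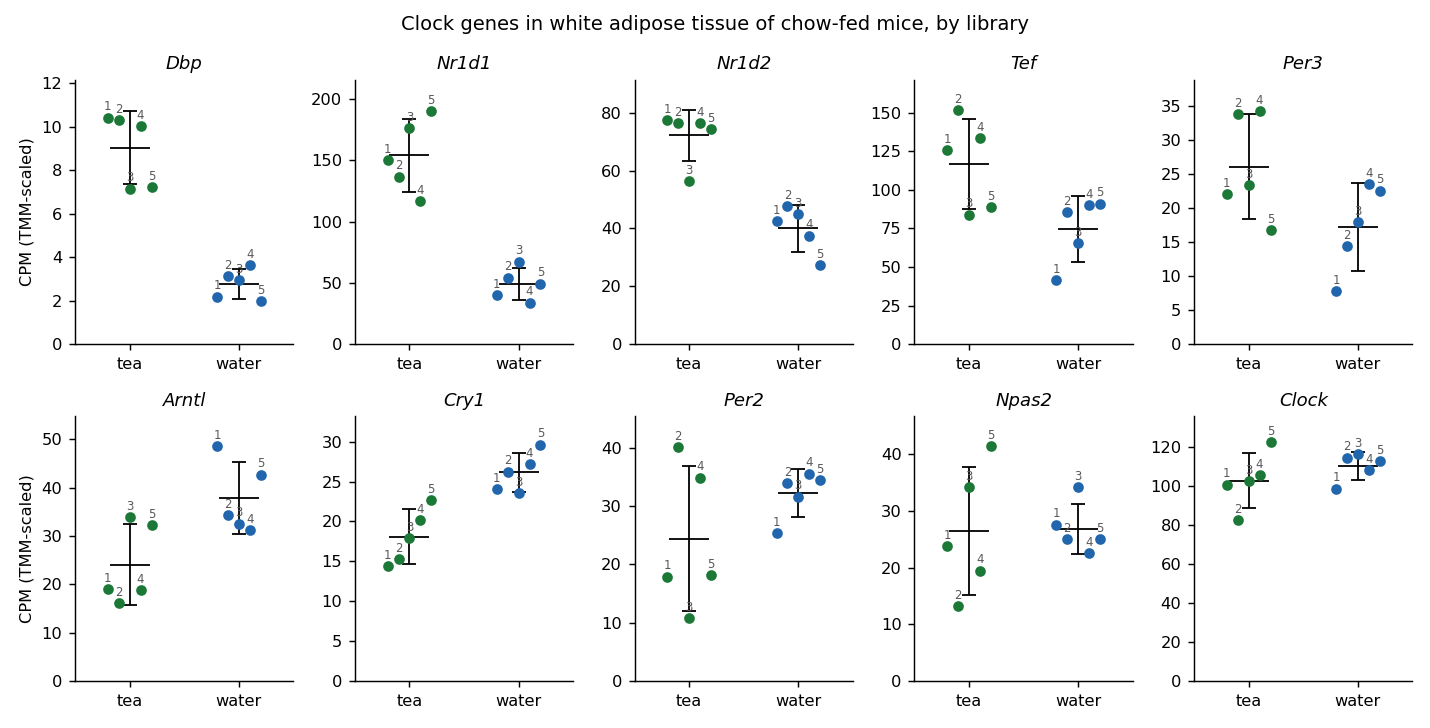
Levels of 10 clock genes (CPM, y axis) in the 5 tea libraries (green, left) and the 5 water libraries (blue, right) of chow-fed mice, with the replicate number above each point. Horizontal marks are means and bars are 1 SD. The groups are apart for Dbp, Nr1d1, Nr1d2 and Cry1, and overlap for Tef, Per3, Arntl, Per2, Npas2 and Clock.

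The promoters of the clock genes were searched for the letters that clock factors are known to bind, on both strands. The motifs were the E-box CACGTG of CLOCK and BMAL1, the ROR element of REV-ERB and ROR receptors (AANT followed at once by AGGTCA), and the D-box TTANGTAA of DBP, TEF, HLF and NFIL3. RefSeq windows on GRCm38.p6, from 250 bases before to 50 bases after the annotated start, were found for 17 of the 20 clock genes. An E-box was present in a window of 5 of the 17, a ROR element in 1 and a D-box in 1. Of all 32851 windows, 7.15% held an E-box, 0.219% a ROR element and 2.32% a D-box. These shares are per window, while the counts are per gene, and Arntl, Clock, Per1 and Tef had more than 1 window. The other Arntl window held no ROR element. The windows of the called genes Dbp and Nr1d1 held none of these letters. They are printed in lower case for that reason, beside the windows of Arntl and Per3, where a ROR element and D-boxes stand in capitals.
Dbp, chr7:45704997-45705296, plus strand: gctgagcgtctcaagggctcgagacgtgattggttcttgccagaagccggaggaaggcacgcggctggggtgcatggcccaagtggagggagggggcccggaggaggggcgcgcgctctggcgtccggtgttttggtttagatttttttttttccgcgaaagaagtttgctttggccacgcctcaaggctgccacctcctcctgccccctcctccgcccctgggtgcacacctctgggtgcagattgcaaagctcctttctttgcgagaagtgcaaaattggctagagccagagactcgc
Nr1d1, chr11:98775328-98775627, minus strand: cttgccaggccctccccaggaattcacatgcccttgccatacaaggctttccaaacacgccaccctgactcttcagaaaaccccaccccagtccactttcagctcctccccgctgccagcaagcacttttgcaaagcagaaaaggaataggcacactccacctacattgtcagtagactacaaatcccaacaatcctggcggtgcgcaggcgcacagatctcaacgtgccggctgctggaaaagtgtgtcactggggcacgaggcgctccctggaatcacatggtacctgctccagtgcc
Arntl, chr7:113207261-113207560, plus strand: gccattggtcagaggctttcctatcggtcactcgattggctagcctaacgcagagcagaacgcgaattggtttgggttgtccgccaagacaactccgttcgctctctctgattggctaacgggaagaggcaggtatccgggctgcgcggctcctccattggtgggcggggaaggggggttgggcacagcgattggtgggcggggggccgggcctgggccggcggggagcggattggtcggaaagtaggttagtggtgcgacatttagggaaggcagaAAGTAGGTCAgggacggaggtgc
Per3, chr4:151044616-151044915, minus strand: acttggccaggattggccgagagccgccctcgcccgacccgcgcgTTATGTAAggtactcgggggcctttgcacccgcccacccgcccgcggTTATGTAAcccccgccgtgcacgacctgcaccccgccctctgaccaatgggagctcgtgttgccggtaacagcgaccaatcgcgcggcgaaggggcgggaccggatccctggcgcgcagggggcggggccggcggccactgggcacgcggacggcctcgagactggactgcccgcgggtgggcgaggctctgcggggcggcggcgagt
A match describes these letters in this window and is not a measured binding site.

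The other 3 called genes stood less firmly than Dbp and Nr1d1. Hnrnpc, which packages nascent transcripts in the nucleus (chromosome 14, 52310834 to 52341485, minus strand), had 82.4, 105, 95.8, 94.7 and 91.4 CPM in tea libraries, against 143, 164, 137, 154 and 117 CPM in water libraries. It fell by 0.61 on the log2 scale (SE 0.09, adjusted p = 0.0157, edgeR) and was called in 15 of 25 alternatives, 5 of them among the 10 that left out 1 chow library. Its call was lost without chow water replicate 2 or 4 or without chow tea replicate 1, 4 or 5, where the change was −0.67 to −0.55 over all 10 such analyses. Reads of this gene can be shared with processed copies elsewhere in the genome.

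Fbxl9, an F-box gene with leucine-rich repeats (chromosome 8, 106038897 to 106052910, minus strand), had 6.65, 5.34, 7.06, 6.60 and 5.61 CPM in tea libraries, against 2.44, 2.87, 3.32, 3.22 and 3.16 CPM in water libraries. It rose by 1.06 on the log2 scale (SE 0.18, adjusted p = 0.0472, edgeR), and lost its call when any one chow library was left out (0.97 to 1.11 on the log2 scale, adjusted p from 0.0567 to 0.188). Vmn2r1, a member of the vomeronasal receptor family that was named after its values were seen, was far lower in level (chromosome 3, 63988968 to 64016905, plus strand). It had 1.34, 0.808, 0.901, 1.05 and 0.928 CPM in tea libraries, against 0.130, 0.245, 0.295, 0.280 and 0.326 CPM in water libraries. It rose by 1.95 (SE 0.30, adjusted p = 0.0183) and was called in 13 of the 24 alternatives in which it was tested, 4 of them among those that left out 1 chow library. The 6 libraries whose loss ended that call were chow water replicates 2, 3 and 4 and chow tea replicates 1, 4 and 5.

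Below the threshold, 12 further genes with the lowest p were taken whose groups did not overlap, whose mean log2 CPM was at least 1 and whose symbols were not predicted-gene names. One is Nr1d2, described above. Of the others, Sdr42e1, Rsad2, Rbl2, Pou2f1, Uri1, Sccpdh and Cirbp were higher with tea, and Hspa2, Abcc3, Lrrfip1 and Gpld1 were lower. All 11 had an adjusted p of 0.187 with edgeR and were not called, while DESeq2 called all 12.

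Cirbp, an RNA-binding protein induced by cold, had 127, 85.9, 121, 94.5 and 128 CPM in tea libraries, against 41.5, 46.4, 53.1, 41.5 and 72.1 CPM in water libraries (log2 1.13, SE 0.25). Sdr42e1, a short-chain dehydrogenase, had 30.5 to 61.3 CPM in tea libraries and 17.8 to 22.7 CPM in water libraries (log2 1.16, SE 0.23). Rbl2, a pocket protein that represses cell-cycle genes, had 61.4 to 88.1 CPM in tea libraries and 48.6 to 54.5 CPM in water libraries (log2 0.44, SE 0.09). Of its exonic bases 21.0% overlap other genes on the opposite strand. Pou2f1, a widely expressed octamer-binding factor, differed by 0.52 (SE 0.11), Uri1, a prefoldin-like chaperone, by 0.72 (SE 0.16), and Sccpdh by 0.62 (SE 0.14). Pou2f1 shares 18.1% of its exonic bases with Cd247 on the opposite strand.

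Among the lower ones, Abcc3, an exporter of organic anions, had 8.08, 12.9, 13.0, 14.7 and 8.03 CPM in tea libraries, against 36.8, 25.9, 16.3, 39.5 and 28.0 CPM in water libraries (log2 −1.37, SE 0.30). Hspa2, a member of the HSP70 family, had 5.70 to 7.51 CPM in tea libraries and 8.59 to 14.0 CPM in water libraries (log2 −0.76, SE 0.15). Lrrfip1 differed by −0.79 (SE 0.17) and Gpld1, a phospholipase that cuts anchored proteins from membranes, by −0.88 (SE 0.19). Gpld1 shares 45.5% of its exonic bases with Mrs2 on the opposite strand. Zfand4, below the level asked of these genes, had 1.27 to 3.70 CPM in tea libraries and 0.851 to 1.06 CPM in water libraries (log2 1.48, SE 0.29, adjusted p = 0.184).

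The genes that define white fat gave no call for tea against water in chow-fed mice. None of the 19 tested genes of the adipocyte identity list was called or had an unadjusted p below 0.05, and their median change was 0.19 on the log2 scale, or −0.04 without chow water replicate 1. Pparg, the master regulator of adipocytes, had 217 to 354 CPM in tea libraries and 115 to 383 CPM in water libraries (log2 0.02, SE 0.33, adjusted p = 0.993). Adipoq, which encodes adiponectin, had 2745 to 3655 CPM in tea libraries and 981 to 4157 CPM in water libraries (log2 0.20, SE 0.37, adjusted p = 0.893). In both genes the lowest water value was that of replicate 1, and without it the changes were −0.20 and −0.04.

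Lists of lipid synthesis, uptake and release held no gene called by edgeR either. Of the 21 de novo lipogenesis genes edgeR called none, DESeq2 called 1, Scd2, and 2 had an unadjusted p below 0.05, both higher with tea (median −0.01, or −0.20 without chow water replicate 1). Fasn, the fatty acid synthase, had 5420, 4413, 1229, 5454 and 3145 CPM in tea libraries, against 911, 3209, 1820, 9745 and 1971 CPM in water libraries (log2 0.16, SE 0.73), so that each group held a several-fold range. Scd1, the main stearoyl-CoA desaturase of fat, differed by 0.28 (SE 0.58), Lpl, the lipase that takes up lipoprotein fat, by 0.32 (SE 0.37), and Pnpla2, which starts the breakdown of stored fat, by 0.37 (SE 0.36). Without chow water replicate 1 those 3 changes were 0.03, 0.11 and 0.13. With standard errors of 0.36 to 0.73 on the log2 scale, the lack of a call does not show that these genes were unchanged.

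Scd2, a second desaturase gene whose reads can be shared with Scd1, did separate the groups. It had 97.0, 80.6, 97.9, 86.7 and 114 CPM in tea libraries, against 37.3, 54.1, 25.1, 66.2 and 53.7 CPM in water libraries. The lowest tea library was above the highest water library, while the change of 1.01 (SE 0.25, adjusted p = 0.187) was not called. DESeq2 called it (adjusted p = 0.0169).

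Lep, the gene of the fat-derived satiety hormone leptin, ranged widely. It had 1.52, 17.7, 9.09, 6.56 and 0.807 CPM in tea libraries, against 5.38, 50.1, 33.4, 35.4 and 170 CPM in water libraries. The tea group was lower by 3.05 on the log2 scale (SE 1.09, adjusted p = 0.270, not called), and the groups overlapped through chow water replicate 1. Of the 19 tested adipokine and adipose hormone genes edgeR called none and DESeq2 called 1, Fgf21, and none without chow water replicate 1. At an unadjusted p below 0.05 with edgeR, 1 was higher and 3 lower (median −0.03), against 1 higher and 5 lower without chow water replicate 1 (median −0.20). Lep and Fgf21 were among the 3, and the higher one was Agt, angiotensinogen (log2 0.97, SE 0.31, adjusted p = 0.232). Fgf21, a metabolic hormone, had 0.257 to 1.33 CPM in tea libraries and 1.61 to 17.5 CPM in water libraries, with the highest value in replicate 1 (log2 −2.76, SE 0.68, adjusted p = 0.190, and −1.62 without that library).

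Thermogenic genes split the libraries within both groups. Ucp1, the uncoupling protein of brown and beige fat, had 260.4, 508, 4.06, 289 and 1.22 CPM in tea libraries, against 21.7, 454, 1.10, 510.2 and 0.590 CPM in water libraries (log2 0.10, SE 1.62, adjusted p = 0.993). It was below 5 CPM in tea replicates 3 and 5 and in water replicates 3 and 5. Cidea, a lipid droplet protein of thermogenic fat, had 385, 382, 57.4, 382 and 68.3 CPM in tea libraries, against 95.1, 532, 28.0, 804 and 25.4 CPM in water libraries, and so followed the same division (log2 −0.22, SE 1.08). Dio2 (−1.24, SE 1.71), Elovl3 (1.39, SE 1.19), Cox8b (−0.27, SE 0.93) and Ppargc1a (−0.91, SE 0.78) were not called either. Of the 20 genes of the list edgeR called none, and DESeq2 called 1, Fgf21, which is on this list too. With a standard error of 1.62 on the log2 scale, the Ucp1 comparison cannot resolve a difference of several-fold.

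**Figure D3:**
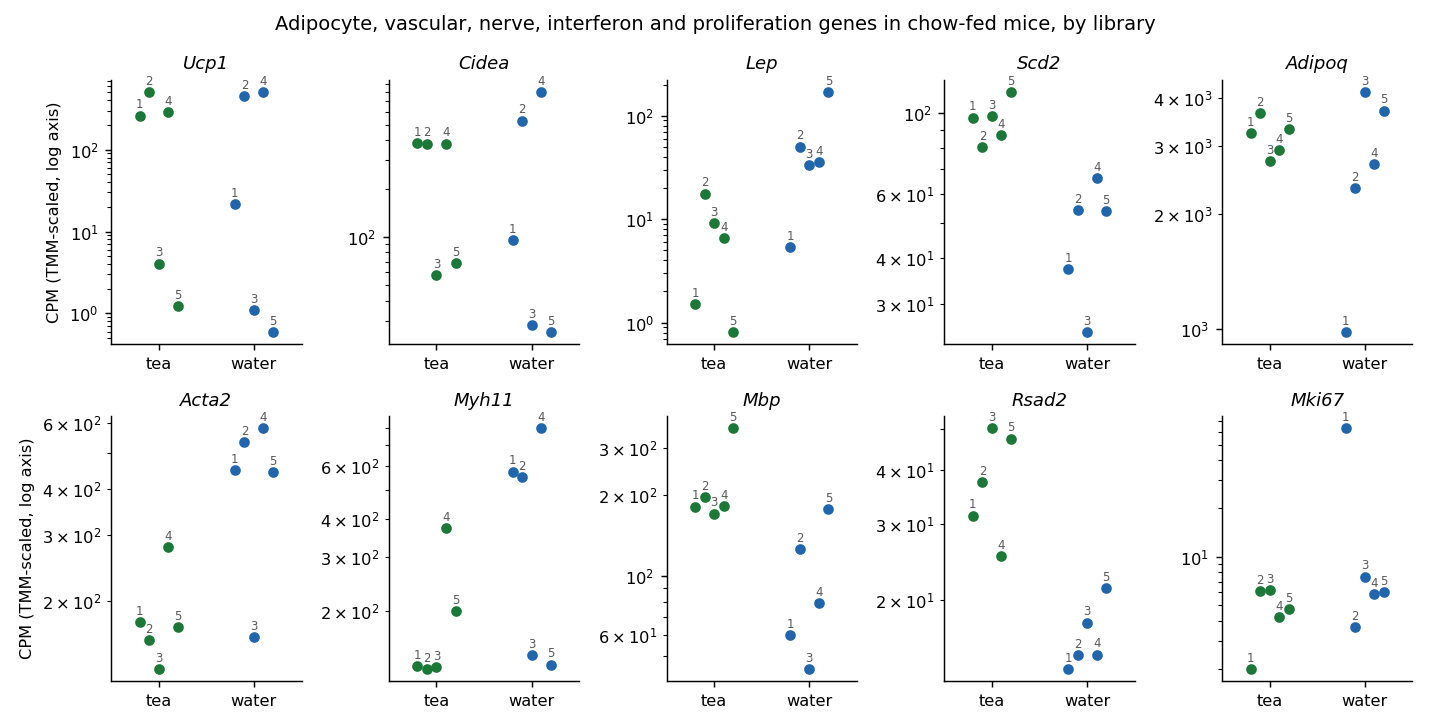
Levels of 10 genes (CPM, log axis, y axis) in the 5 tea libraries (green, left) and the 5 water libraries (blue, right) of chow-fed mice, with the replicate number above each point. Scd2 and Rsad2 are apart between the groups. Ucp1 and Cidea are low in replicates 3 and 5 of both groups, and Mki67 is high in chow water replicate 1.

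Across 49 lists of pathways and cell types, 1 held a gene called by edgeR, the circadian clock. DESeq2 called a member of 12 lists, and of 5 without chow water replicate 1. Of the 49 lists 46 had a median change within 0.5 of 0 on the log2 scale. Genes of oxidative phosphorylation encoded in the nucleus (44 tested, median −0.06) and in mitochondria (13 tested, median −0.06) had no member with an unadjusted p below 0.05. Insulin signalling (22 tested, median 0.14), the citric acid cycle (23 tested, median −0.01), fatty acid oxidation (29 tested, median 0.05) and collagens and matrix (29 tested, median −0.07) had 1, 1, 2 and 1 members at that unadjusted p. In 11 of the 49 lists at least 20% of the tested members were at an unadjusted p below 0.05, beside 12.4% of all genes. Without chow water replicate 1 that p was reached by 1614 of 21778 genes tested. List counts given without that library stand beside this lower background.

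Interferon-stimulated genes, which act against viruses, leaned towards higher values with tea. Of the 28 edgeR called none and DESeq2 called 1, Rsad2; 6 had an unadjusted p below 0.05, all higher with tea, and 26 of the 28 had a change above 0 (median 0.33, or 0.50 without chow water replicate 1). Rsad2, which encodes the antiviral enzyme viperin, had 31.4, 37.5, 50.04, 25.2 and 47.4 CPM in tea libraries, against 13.8, 14.9, 17.7, 14.9 and 21.3 CPM in water libraries, with no overlap (log2 1.21, SE 0.25, adjusted p = 0.187). Ifit2 had 14.9, 30.7, 29.5, 14.5 and 23.8 CPM in tea libraries, against 15.2, 13.2, 17.9, 12.6 and 15.2 CPM in water libraries (log2 0.62, SE 0.21). Mx1, an antiviral GTPase, had 0.907, 10.4, 5.54, 0.891 and 2.58 CPM in tea libraries, against 2.18, 1.86, 1.45, 0.903 and 1.66 CPM in water libraries (log2 1.34, SE 0.56). Tea replicates 2 and 3 were the highest for both of these, while tea replicates 1 and 4 were at or near the levels of the water libraries. Ifit3b, which can exchange reads with Ifit3, differed by 1.05 (SE 0.36).

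Genes that break down branched-chain amino acids, a fuel of fat cells, also leaned towards tea. None of the 22 was called, and 6 had an unadjusted p below 0.05, all higher with tea, with a median of 0.14 (0.03 and 3 genes without chow water replicate 1). Dbt, a subunit of the branched-chain ketoacid dehydrogenase, had 122 to 151 CPM in tea libraries and 87.7 to 111 CPM in water libraries, with no overlap (log2 0.48, SE 0.15, adjusted p = 0.232). Mccc2, which acts in leucine breakdown, had 148 to 184 CPM in tea libraries and 61.9 to 131 CPM in water libraries, also with no overlap (log2 0.56, SE 0.19). Ppm1k, the phosphatase that switches the dehydrogenase on, differed by 0.61 (SE 0.19) and Bcat2, the transaminase of the first step, by 0.68 (SE 0.29), with overlapping groups. Bcat2 shares 15.9% of its exonic bases with an opposite-strand gene.

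In cholesterol synthesis and transport, 4 of 26 genes had an unadjusted p below 0.05, all higher with tea, and none was called by edgeR or DESeq2 (median 0.02). That share of 15.4% stood beside 12.4% over all genes. Without chow water replicate 1, 2 were left, beside 1614 of 21778 over all genes. Cyp51, an enzyme of sterol synthesis, had 121, 52.8, 43.0, 50.7 and 72.8 CPM in tea libraries, against 26, 25.2, 31.5, 29.9 and 24.2 CPM in water libraries (log2 1.31, SE 0.46, adjusted p = 0.261). Mylip, which marks the LDL receptor for breakdown, had 129 to 177 CPM in tea libraries and 65.8 to 120 CPM in water libraries (log2 0.68, SE 0.19, adjusted p = 0.193). The groups did not overlap for either gene.

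Some lists with lower values in tea libraries leaned on chow water replicate 1, the cell cycle more than the unfolded protein and heat shock list. Of 30 cell-cycle genes edgeR called none and DESeq2 called 1, Kif11, and none without that library. With edgeR, 14 were lower with tea at an unadjusted p below 0.05, with a median of −0.74; without that library the median was −0.07, with 1 higher and none lower at that p. Mki67, a marker of dividing cells, had 2.01 to 6.22 CPM in tea libraries, against 63.0, 3.65, 7.52, 5.86 and 6.01 CPM in water libraries (log2 −1.88, SE 0.66, and −0.33 without that library). Top2a (−2.06, or −0.41 without that library) and Kif11 (−2.03, or −0.80), which also act in division, had their highest values there as well. In the unfolded protein and heat shock list, 6 of 22 were lower at an unadjusted p below 0.05 (median −0.39), against 3 of 22 without that library (median −0.22). Beside the 3 of 22 stood 1614 of 21778 over all genes. DESeq2 called 0 members with all libraries and 1, lower with tea, without chow water replicate 1. Hspa5, the main chaperone of the endoplasmic reticulum, had 304 to 437 CPM in tea libraries and 348 to 860 CPM in water libraries (log2 −0.50, SE 0.21), Sdf2l1 was at −2.10 (−0.82 without chow water replicate 1) and Manf at −0.97 (−0.42). Nupr1, a stress-induced gene that is abundant in pancreas, had 48.0 to 67.4 CPM in tea libraries, against 2225 CPM in chow water replicate 1 and 64.7 to 70.7 CPM in the other water libraries.

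Ada, which degrades adenosine, likewise had 1.92 to 2.67 CPM in tea libraries, against 158 CPM in chow water replicate 1 and 1.72 to 2.63 CPM in the other water libraries. In its list, of adenosine receptors and the breakdown of cyclic nucleotides, on which caffeine and other methylxanthines of tea act, none of 25 genes was called, 1 was higher and 4 lower at an unadjusted p below 0.05. Without chow water replicate 1, 0 were higher and 2 lower at that p. Adora2b, an adenosine receptor, had 0.403 to 1.02 CPM in tea libraries and 0.538 to 2.22 CPM in water libraries (log2 −1.10, SE 0.34, adjusted p = 0.213). The more abundant receptor Adora1 had 95.5 to 145.5 CPM in tea libraries and 36.9 to 96.5 CPM in water libraries (log2 0.74, SE 0.35). Adora2a was at 0.28 (SE 0.36) and the low Adora3 at −0.89 (SE 0.55). Without chow water replicate 1, Adora1 was at 0.55 and Adora2a at 0.06. In the TGF-beta, activin and BMP list, 2 of 22 were higher and 3 lower at an unadjusted p below 0.05 (22.7%, beside 12.4% of all genes). Tgfbr2, a TGF-beta receptor, had 237 to 321 CPM in tea libraries and 118 to 225 CPM in water libraries, without overlap (log2 0.50, SE 0.15, adjusted p = 0.212), and the ligand Bmp6 differed by 0.70 (SE 0.22). The 3 lower ones were Smad7, Bmp3 (−1.505, SE 0.50) and Bmp7 (−2.22, SE 0.93). Smad7 had 11.2 to 16.3 CPM in tea libraries and 16.6 to 26.5 CPM in water libraries, also without overlap (log2 −0.60, SE 0.19). Without chow water replicate 1 the changes were 0.35 for Tgfbr2, 0.53 for Bmp6, −0.49 for Smad7, −1.06 for Bmp3 and −0.98 for Bmp7.

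Markers of vessel walls and nerves varied by library. Of 13 pericyte and smooth muscle genes, 1 was higher and 3 lower in tea libraries at an unadjusted p below 0.05, and edgeR called none while DESeq2 called 1, Kcnj8. Smooth muscle actin, Acta2, had 176, 157, 131, 280 and 170 CPM in tea libraries, against 448, 534, 160, 581 and 442 CPM in water libraries (log2 −1.24, SE 0.48). Myh11, a smooth muscle myosin, had 129 to 373 CPM in tea libraries, against 574, 551, 143, 795 and 133 CPM in water libraries (log2 −1.19, SE 0.55). Cnn1 (−2.09, SE 1.02) and Mylk (−1.18, SE 0.45) were likewise highest in water replicates 1, 2 and 4. Of the 13 genes 5 had a change above 0 (median of the list −0.45). Kcnj8, a potassium channel of pericytes, was among them, with 28.8 to 55.7 CPM in tea libraries and 20.4 to 30.2 CPM in water libraries (log2 1.02, SE 0.24, adjusted p = 0.187). Abcc9 had 121.8 to 167.5 CPM in tea libraries and 64.5 to 121.2 CPM in water libraries, without overlap (log2 0.59, SE 0.29, or 0.46 without chow water replicate 1). Notch3 was at 0.34, Higd1b at 0.29 and Tagln at 0.07. Of 12 Schwann cell and nerve genes none was called, and 8 had a change above 0 (median 0.55, or 0.43 without chow water replicate 1). At an unadjusted p below 0.05, 3 were higher and 1 lower in tea libraries, against 0 higher and 1 lower without chow water replicate 1. Mbp, a gene of myelin, had 181, 196, 170.3, 182 and 353 CPM in tea libraries, against 59.9, 125, 44.9, 79.1 and 177 CPM in water libraries (log2 1.16, SE 0.46, adjusted p = 0.307). Prx, another gene of myelin, was at 1.52 (SE 0.63) and was not called either. Without chow water replicate 1 these 2 changes were 1.01 and 1.25. Th, a marker of sympathetic nerves and of adrenal medulla, was at 16.4 CPM in chow water replicate 4 and at most 0.837 CPM in the other chow libraries.

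**Figure D4:**
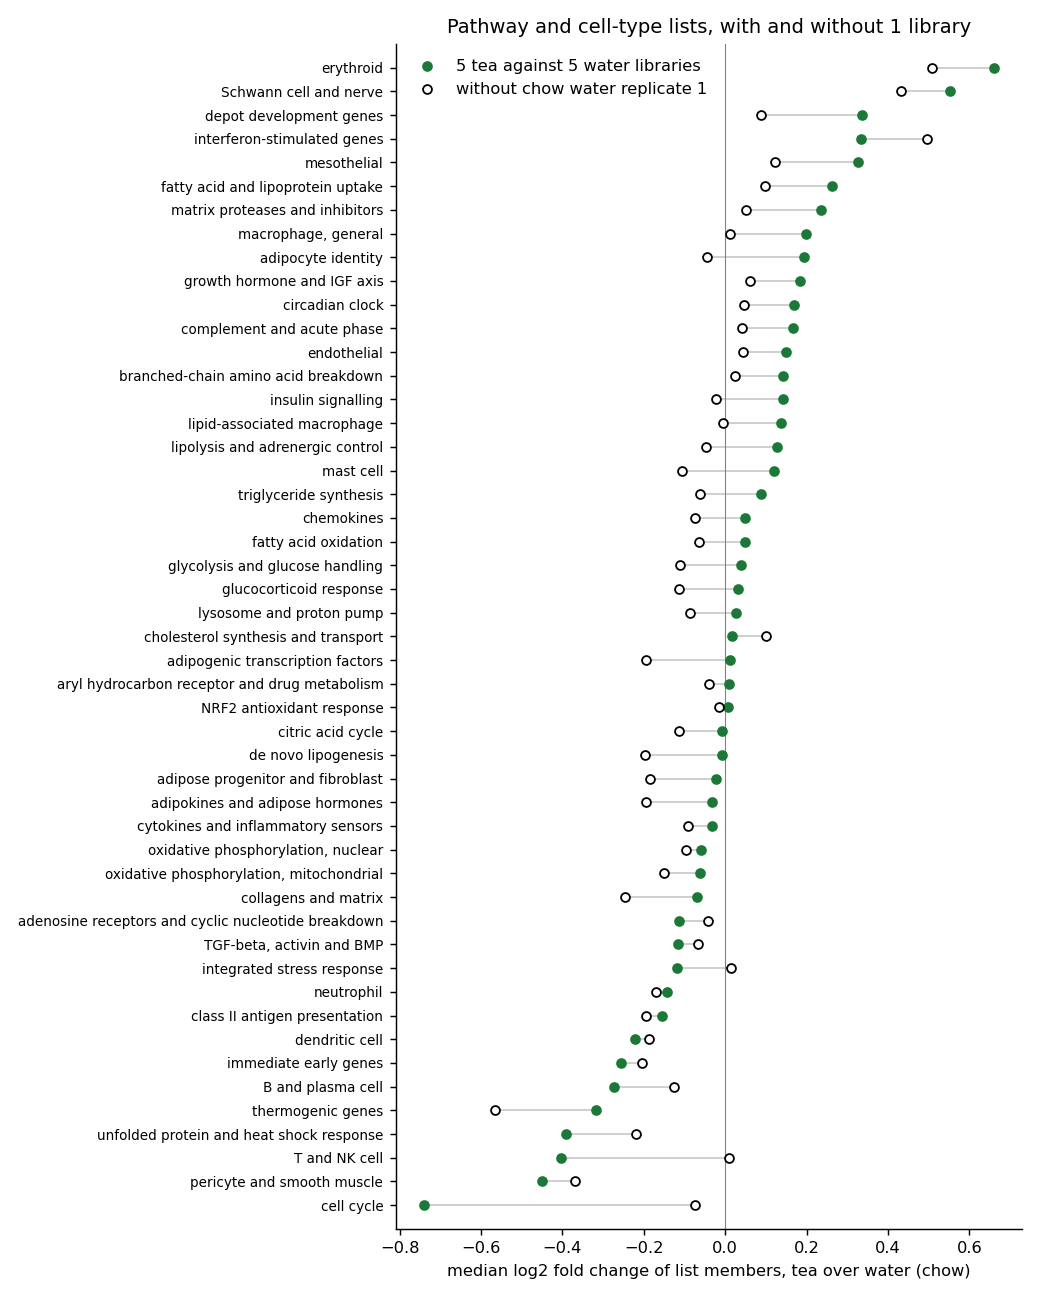
Median change with tea in chow-fed mice (log2 fold change, tea over water, x axis) of the members of 49 pathway and cell-type lists (y axis). Green points use all 10 libraries and open points leave out chow water replicate 1. The cell cycle is at −0.74 with all libraries and at −0.07 without that one, while interferon-stimulated genes stay above 0 (0.33 and 0.50).

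Inflammation and xenobiotic genes gave no call. The 22 general macrophage genes had a median of 0.20 (0.01 without chow water replicate 1), with Adgre1, the F4/80 antigen, at 25.4 to 51.5 CPM in tea libraries and 13.0 to 65.0 CPM in water libraries (log2 0.02, SE 0.40). Trem2, a receptor of lipid-associated macrophages, had 11.5, 5.36, 7.80, 3.52 and 2.97 CPM in tea libraries, against 1.92, 2.42, 4.51, 2.07 and 3.28 CPM in water libraries (log2 1.13, SE 0.56, adjusted p = 0.426). The chemokine Ccl2 (0.41, SE 0.57), the cytokine Tnf (−0.95, SE 0.73, at most 0.521 CPM in any chow library) and the collagen gene Col1a1 (0.09, SE 0.36) were not called. Cyp1a1, a target of the aryl hydrocarbon receptor, had 8.74, 9.31, 3.89, 7.97 and 14.0 CPM in tea libraries, against 4.92, 4.95, 5.22, 4.30 and 0.904 CPM in water libraries (log2 1.11, SE 0.82, adjusted p = 0.631). Nqo1, a target of NRF2 (−0.26, SE 0.51), Cyp2e1, a cytochrome P450 that metabolises ethanol (0.50, SE 0.41), and Fkbp5, a glucocorticoid target (−0.15, SE 0.29), were not called either.

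Whether tea acted alike under both diets was tested by the difference of its effects, chow minus high-fat. Of 21306 genes 14 (0.0657%) were called, 7 with a higher (0.0329%) and 7 with a lower value in chow. One of the 14, Dbp, was called in chow, while 13 were called in high-fat feeding, where 928 genes (4.36%) were called in all. In chow 4 of the 14 had an unadjusted p below 0.05. The tea effect had opposite signs under the 2 diets in 10 of the 14, some of them with a value near 0 under one diet, such as Ano8 in chow (0.07) and Dbp in high-fat feeding (−0.03). Of the 10 high-fat libraries 6 held more than 1000 CPM of another tissue's genes, and without those 6 and the 3 chow libraries over the same limit no difference was called (edgeR, 2260 genes at an unadjusted p below 0.05).

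Dbp had 66.9 ± 17.0 CPM in high-fat tea libraries and 68.3 ± 13.4 CPM in high-fat water libraries (SD, n = 5 each, log2 −0.03, SE 0.20). Its change with tea was larger in chow by 1.73 on the log2 scale (SE 0.29, adjusted p = 0.0291, edgeR). That difference was no longer called when replicate 1, 2 or 3 of chow water or replicate 1, 2 or 4 of chow tea was left out, and was 1.60 to 1.75 there. Nr1d1 had 218 ± 68.0 CPM in high-fat tea libraries and 171 ± 21.0 CPM in high-fat water libraries (log2 0.35, adjusted p = 0.326), and its difference between diets of 1.31 was not called (SE 0.29, adjusted p = 0.107). Arntl stood at 3.15 ± 0.842 CPM in high-fat tea libraries and 5.73 ± 2.79 CPM in high-fat water libraries (log2 −0.86, SE 0.29, adjusted p = 0.0875). Per1 averaged 151 CPM in high-fat tea libraries and 131 CPM in high-fat water libraries, near its means of 162 CPM in chow tea libraries and 142 CPM in chow water libraries. Rora was near too (77.2 and 60.8 CPM, against 79.1 and 71.6 CPM). Other members were not, among them Npas2, with means of 1.78 and 1.07 CPM, against 26.5 and 26.9 CPM in the chow groups. Per2 averaged 62.1 and 61.0 CPM, against 24.4 and 32.2 CPM, and Tef 284 and 202 CPM, against 117 and 74.7 CPM. These genes were picked after their values were seen, and levels were not tested between diets. The hour of collection of each group is not given, and its part in these values was not tested.

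Of the other called genes, Fbxl9 was also called in high-fat feeding, with 5.24 ± 1.48 CPM in high-fat tea libraries and 2.96 ± 0.258 CPM in high-fat water libraries (log2 0.82, adjusted p = 0.0174). Vmn2r1 rose there by 1.10 (adjusted p = 0.0398), and Hnrnpc was at −0.15 (adjusted p = 0.312, not called). For Nr1d1, Hnrnpc, Fbxl9 and Vmn2r1 the difference between diets was not called, with adjusted p from 0.107 to 0.71. Among genes that edgeR did not call in chow (adjusted p from 0.187 to 0.232), Cirbp (1.01, adjusted p = 0.0330), Rbl2 (0.42, adjusted p = 0.0195), Dbt (0.62, adjusted p = 0.0309) and Ppm1k (0.91, adjusted p = 0.0161) rose in high-fat feeding. These 4 were singled out after their values were seen.

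Scd2 had the smallest p for the difference. It had 84.8 ± 26.1 CPM in high-fat tea libraries and 324 ± 82.2 CPM in high-fat water libraries, and fell there by 1.94 (adjusted p = 0.000928), whereas in chow it was at 1.01 and not called. The difference was 2.95 (SE 0.35, adjusted p = 0.00238). Krt79, a keratin of sebaceous glands and skin, had 12.5, 10.5, 18.2, 11.4 and 14.6 CPM in chow tea libraries, against 2.96, 4.02, 5.06, 3.74 and 8.75 CPM in chow water libraries, with no overlap (log2 1.45, SE 0.33, adjusted p = 0.187 with edgeR, not called, and 0.00441 with DESeq2). In high-fat feeding it fell by 1.23 (adjusted p = 0.0398), and the difference was 2.69 (SE 0.46, adjusted p = 0.0291).

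Septin9, a cytoskeletal GTPase, fell by 0.97 in high-fat feeding and was at 0.24 in chow (difference 1.21, adjusted p = 0.00616). Rassf6, a member of the RASSF family, rose by 3.64 in high-fat feeding and was at 0.12 in chow (difference −3.52, adjusted p = 0.00946). Acot4, a peroxisomal acyl-CoA thioesterase with near-identical relatives, rose by 2.69 there and was at 0.32 in chow (difference −2.36). It shares 9.21% of its exonic bases with an opposite-strand gene and 6.85% with a same-strand gene. The opposite-strand gene is itself among the 14 called differences (−2.93), and whether the 2 are separate signals was not tested. Ivns1abp was lower with tea in chow (−0.60, not called) and rose in high-fat feeding (0.81, adjusted p = 0.0205). The remaining called differences named here were those of Eif4ebp3 (−3.02), Ano8 (0.99), Vac14 (1.06), Rnase2a (3.95) and Sqor (−0.95). Eif4ebp3 shares 67.3% of its exonic bases with Maskbp3 on the same strand, and Rnase2a belongs to a family of near-identical copies. Rnase2a was also low in level, with at most 0.297 CPM in chow tea, 0.179 CPM in chow water and 0.299 CPM in high-fat tea libraries. In high-fat water libraries it had 1.10 to 2.31 CPM.

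**Figure D5:**
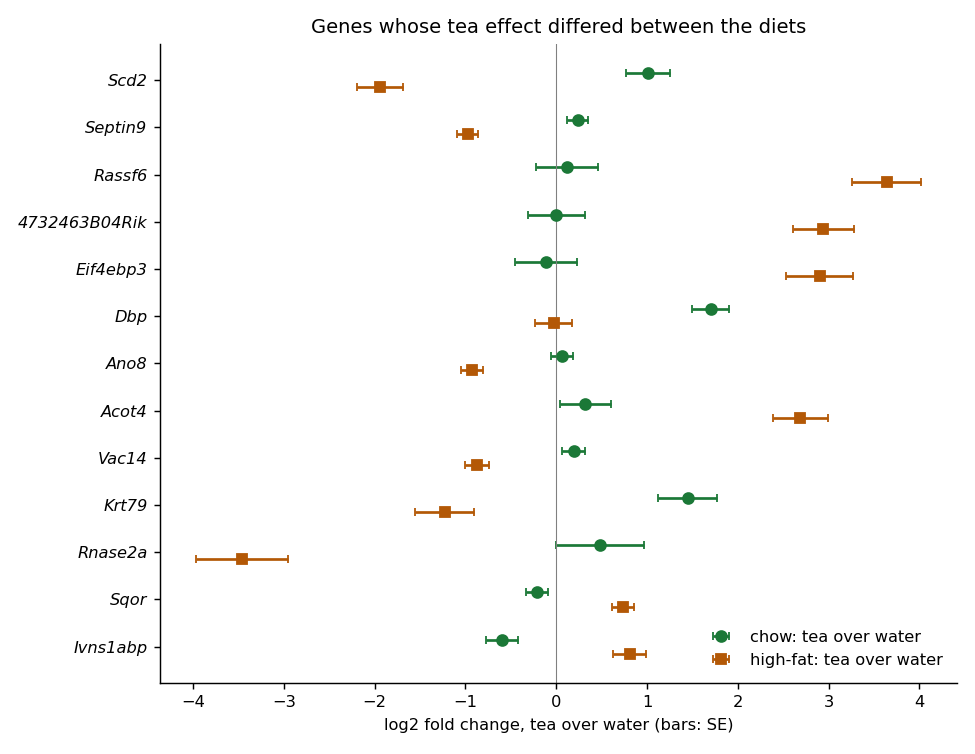
Change with tea (log2 fold change, tea over water, x axis) of 13 genes in chow-fed mice (upper point of each pair) and in high-fat-fed mice (lower point), with bars of 1 standard error. Scd2 and Krt79 lie above 0 in chow and below 0 in high-fat feeding, while Rassf6 and Acot4 are near 0 in chow and above 0 in high-fat feeding.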

How the data were processed

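White adipose tissue RNA of 20 mice was sequenced, 5 for each combination of diet and drink. The values used are read counts per gene as deposited by the authors, one table per mouse. Per the file headers they were made with featureCounts 2.0.6 on paired-end alignments against the GENCODE vM32 annotation (GRCm39), summarised by gene name, with no strand option, no option for multi-mapping reads and each mate counted singly. The submitters' processing notes name fastp 0.23.2, HISAT2 2.2.1 and the build mm10, which differs from that in the headers. Because strand was ignored, reads of overlapping opposite-strand genes cannot be told apart. Because both mates were counted, a count is not a number of molecules.

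Genes were filtered by edgeR's filterByExpr (a count of 10, a total of 15), which left 21306 of 56805 and removed 35499. Library sizes were scaled by TMM, and all 4 groups shared a group-means model in edgeR 4.0.16 (R 4.3.3) with the quasi-likelihood F test and Benjamini-Hochberg adjustment over all genes tested. The common biological coefficient of variation was 0.593. The standard error of a log2 fold change is its absolute value divided by the square root of F. The procedure was run on simulated counts with known changes. Apart from those changes every simulated library had the same mean profile, so the run does not show how the test behaves with other-tissue transcripts in single libraries. DESeq2 1.42.0, limma 3.58.1, other scalings and filters, a replicate block and the omission of libraries were alternatives. Exon overlaps were computed with bedtools 2.31.1 and tables with pandas 2.3.3. Promoters came from a RefSeq table on GRCm38.p6, and no coordinates were carried between builds.

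The members, gene lists and tests were chosen with earlier results of these data known. Genes were named by a rule: of the called genes, those that rose most and those that fell most, at most 8 each (mean log2 CPM of at least 1, no predicted-gene symbol, groups not overlapping), which gave Dbp, Nr1d1, Fbxl9 and Hnrnpc, up to 4 genes with the lowest p for the difference between diets, and 22 set genes of fat, inflammation, clock and xenobiotic response. Every other gene, including the next 12 by p and 2 members of each list with at least 20% of its members at an unadjusted p below 0.05, was named after its values were seen. The labels do not state whether samples with the same replicate number share anything, so the main model held no replicate block. Some genes are not reported here.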

Additional observations from a re-analysis of the deposited data

Results flagged for a closer look

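Within a group of 5 libraries, a gene was marked where its highest or lowest library lay far from the other 4 (Dixon's test at the 95% level). Of 198 tests, over 99 of the genes named here in both chow groups, 26 were marked, and 13 of the 26 were in chow water replicate 1. Chance marks about 1 in 20 such tests. That library was high for Nupr1 (2225 CPM), Ada (158 CPM), Sdf2l1 (68.5 CPM), Mki67 (63.0 CPM), Top2a (45.0 CPM), Sphk2 (43.1 CPM) and Kif11 (15.2 CPM). It was low for Cyp2e1 (2411 CPM), Pnpla2 (1384 CPM), Pparg (115 CPM), Mccc2 (61.9 CPM), Bmp6 (27.9 CPM) and Bhlhe41 (1.40 CPM). It also held the pancreas transcripts, whose part in these values was not tested.

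Among the tea libraries, replicate 2 was marked for a high Nupr1 (67.4 CPM), a high Th (0.0299 CPM, the others at 0) and a low Kcnj8 (28.8 CPM). Tea replicate 3 was low for Nr1d2 (56.4 CPM) and Per1 (80.9 CPM), replicate 4 was high for Cnn1 (24.3 CPM) and Thra (128 CPM), and replicate 5 was high for Mbp (353 CPM) and Prx (89.2 CPM). In the water group replicate 3 was low for Acta2 (160 CPM) and Adora2b (0.538 CPM). Water replicate 5 was high for Kcnj8 (30.2 CPM) and low for Cyp1a1 (0.904 CPM).

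The effect of tea differed between chow and high-fat feeding in the edgeR test of that difference for 12 named genes. The difference, chow minus high-fat on the log2 scale, was positive for Rnase2a (3.95), Scd2 (2.95), Krt79 (2.69), Dbp (1.73), Septin9 (1.21), Vac14 (1.06) and Ano8 (0.99). It was negative for Rassf6 (−3.52), Eif4ebp3 (−3.02), Acot4 (−2.36), Ivns1abp (−1.41) and Sqor (−0.95).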

How the results depend on the processing

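The count of 5 genes called in chow was 4 to 6 with RLE or upper-quartile scaling, a strict filter, limma voom, halved counts or other-tissue genes taken out. It was 2 with no filter on low counts, 261 with DESeq2 (85 without chow water replicate 1), 14 with limma voom and quality weights, 9 without 3 libraries with other-tissue transcripts (chow water replicate 1 and replicate 4 of both high-fat groups), and 2 to 6 when 1 chow library was left out. It was 0 with only the chow libraries (2398 genes at an unadjusted p below 0.05), 0 with those but chow water replicate 1 (2337) and 0 without the 9 libraries over the other-tissue limit (1501). The 14 differences between diets became 4 with no filter, 691 with DESeq2 (467 without chow water replicate 1), 6 with limma voom, 84 with quality weights, 44 without the 3 libraries, 0 without the 9, and 3 to 24 when 1 chow library was left out. The causes were not tested. Same-numbered tea and water samples correlated at −0.15 to 0.39 over 5 pairs, and 2 of 5 correlated best with their own number. Samples with different numbers correlated at −0.33 to 0.19. What the numbers share, if anything, is not given and was not tested. A replicate block gave 2 calls in chow, Dbp and Nr1d1, and with the block Cox8b (0.11) and Cidea (0.26) changed sign.

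The sign of genes that were not called turned under other alternatives. Without the 3 libraries this held for Ada (0.013), Adipoq (−0.019), Col1a1 (−0.12), Fasn (−0.091), Pparg (−0.18), Ucp1 (−0.19) and Adgre1 (−0.21). Without the 9 libraries it held for Ada (0.069), Pnpla2 (−0.024), Ccl2 (−0.23), Per1 (−0.032), Thra (−0.0038), Ano8 (−0.056), Adipoq (−0.17), Nqo1 (0.30), Scd1 (−0.15), Col1a1 (−0.26), Fasn (−0.35), Pparg (−0.24) and Adgre1 (−0.36). With DESeq2 and no chow water replicate 1 it held for Ada (0.0014), Adipoq (−0.035), Col1a1 (−0.14), Fasn (−0.10), Pparg (−0.19), Ucp1 (−0.20) and Adgre1 (−0.22). With the chow libraries but that one it held for Adipoq (−0.047), Col1a1 (−0.15), Fasn (−0.12), Pparg (−0.20), Ucp1 (−0.21) and Adgre1 (−0.23). Limma voom turned Ccl2 (−0.011), Cox8b (0.40) and Cidea (0.60), and quality weights Dio2 (0.073), Ccl2 (−0.22), Cox8b (0.14), Col1a1 (−0.016), Cidea (0.39), Pparg (−0.064) and Adgre1 (−0.13). The strict filter turned Pparg (−0.0024) and Adgre1 (−0.0076), no filter Adgre1 (−0.0036), and the removal of other-tissue genes Adgre1 (−0.0065). When 1 chow library was left out, sign changed for Ccl2 (−0.016 to 0.69), Ciart (−0.16 to 0.38), Adipoq (−0.044 to 0.39), Rassf6 (−0.0396 to 0.24), Eif4ebp3 (−0.28 to 0.11), Cox8b (−0.56 to 0.33), Col1a1 (−0.15 to 0.29), Fasn (−0.11 to 0.99), Cidea (−0.52 to 0.59), Npas2 (−0.24 to 0.15), Pparg (−0.20 to 0.16), Ucp1 (−0.51 to 0.83) and Adgre1 (−0.23 to 0.28). Removing every library over 1000 CPM of any other-tissue list could not be run as planned, since the liver list exceeds that in all libraries. The alternatives without 9 libraries, with chow alone but replicate 1, and DESeq2 without it were chosen after seeing the data. The chow libraries alone cannot give the difference between diets.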
